A study of Mus musculus with 4 samples.

Results

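The 9 genes described here encode cell-surface proteins that are used, alone or in combination, to sort SSCs, the spermatogonial stem cells from which mouse sperm production is renewed. They are Itga6, Itgb1, Thy1, Cd9, Cd24a, Epcam, Cdh1, Adgra3 and Mcam. They were chosen by name, with earlier results of these data known. All 9 were found among the 37653 genes of the FPKM table and the 55335 genes of the count table. The study compared cultured SSCs of wild-type (WT) mice with SSCs labelled Tex11PM/Y, with 2 libraries each. Tex11 is an X-linked gene needed for crossovers in meiosis, and the labels do not define PM. All cells came from postnatal day 10 testes of the strain given as C57/BL6*DBA2, were grown in culture with repeated passages, and were collected on a FACS AriaII sorter. The labels do not say which surface proteins the sort used, nor whether the libraries of a genotype came from separate animals or cultures. All p-values here thus reflect the spread of these libraries only, which may be technical. Below, WT replicates 1 and 2 are written WT1 and WT2, and the Tex11PM/Y libraries A and B.

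SSCs are rare and have no surface protein of their own, so they are enriched with antibodies to adhesion proteins. The laminin receptor is a pair of integrin chains, alpha 6 (Itga6) and beta 1 (Itgb1), which holds the cells to the basement membrane of the seminiferous tubule. THY1 and CD24 are small glycoproteins held in the membrane by a glycolipid (GPI) anchor. CD9 is a tetraspanin that organizes integrins into membrane domains. EpCAM and E-cadherin (Cdh1) hold epithelial cells and spermatogonia to their neighbours, ADGRA3 (GPR125) is an adhesion G protein-coupled receptor, and MCAM is an immunoglobulin-type adhesion protein. Several of them are not restricted to germ cells: THY1 is abundant on fibroblasts and T cells, integrin beta 1 is found on almost all adherent cells, and MCAM marks endothelium and smooth muscle.

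The libraries held between 19047148 and 19804951 counts, and no pair of them agreed within sampling noise (chi-square statistic of 18.6 to 216.7 per degree of freedom). Tex11 itself held 66.4 and 126 CPM (a count relative to its scaled library total) in WT1 and WT2, and 22.7 and 9.32 CPM in Tex11PM/Y libraries A and B, without passing the test. Of the germ cell markers, 12 of 12 had counts in every library, and they summed to 631 and 790.4 FPKM in WT1 and WT2, and to 973 and 825 FPKM in libraries A and B. FPKM is corrected for gene length and depth, so levels of different genes can be compared. Other cells were present too. The 15 fibroblast markers, all detected in every library, summed to 2589 and 774 FPKM in WT1 and WT2, and to 88.4 and 1055 FPKM in libraries A and B. The 13 macrophage markers summed to 409, 356, 16.3 and 881 FPKM in the same order. The 9 endothelial markers summed to between 7.54 and 26.4 FPKM and the 6 T cell markers to between 1.55 and 2.75 FPKM. Single T cell markers were mixed. Cd3e and Cd8a were at 0 counts in WT1, where Trac had 1. Cd3g and Cd4 were highest there, with 21 and 3 counts, and Cd2 had 24 to 42 counts over the libraries. In bulk RNA, fewer cells of a type and less RNA per cell cannot be told apart.

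All 9 genes were read in all 4 libraries, from 93 counts for Thy1 in library A to 12543 counts for Itgb1 in WT1, and all 9 passed the filter on low counts. By their order within each library they were divided into a high and a low set. In WT1 no clear gap lay between the sets, as Thy1 held 69.4 FPKM beside 89.1 for Epcam. Mcam (121 ± 26.3 FPKM), Cd9 (105 ± 12.7), Epcam (92.7 ± 16.1) and Itgb1 (86.1 ± 36.3; SD over 4 libraries) were the 4 highest of the 9 in each library. Their values overlapped and their order changed between libraries, except that Mcam was above Epcam in all 4. Thy1 (31.9 ± 27.7 FPKM), Itga6 (26.6 ± 7.86) and Adgra3 (16.6 ± 2.80) followed, and Cd24a (8.54 ± 7.46) and Cdh1 (4.92 ± 3.07) were lowest by mean. Within each set, every pair of neighbours by mean changed order in at least 1 library, and Thy1 was the fifth highest in 3 libraries and the lowest of all in library A. Counts divided by gene length and total were 1.04 to 1.25 times the deposited FPKM over the 36 values, so the tables gave like levels.

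**Figure D1:**
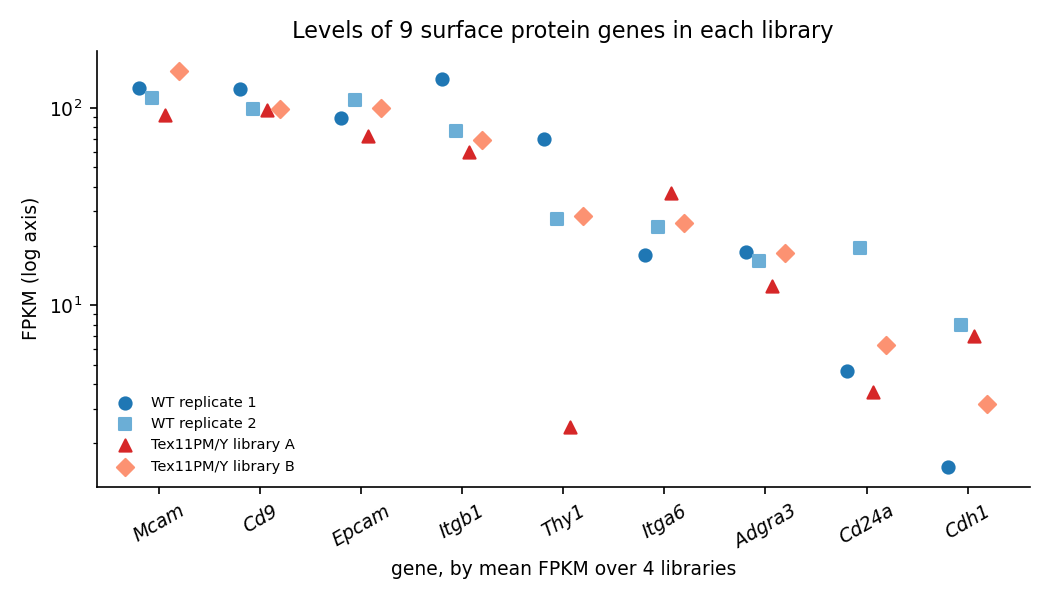
FPKM of the 9 genes (log axis) in each of the 4 libraries, 1 point per library, ordered by mean. Mcam, Cd9, Epcam and Itgb1 lie above the other genes in every library, Thy1 spreads from 2.41 to 69.4 FPKM, and Cd9 stays between 98.0 and 124 FPKM.

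The sequence before the transcription start was looked at for the 4 highest genes, to show the DNA in front of the most abundant transcripts. RefSeq start-site windows (build GRCm38.p6) were found for 5 of the 9 genes, Itgb1, Cd9, Epcam, Adgra3 and Mcam. Bases that the deposited annotation counts as transcribed were left out. The sequences are written 5′ to 3′ on the strand of the gene, with each match to the GC box GGGCGG, or its reverse complement CCGCCC, in capitals.
Mcam, chr9:44134408-44134561, plus strand: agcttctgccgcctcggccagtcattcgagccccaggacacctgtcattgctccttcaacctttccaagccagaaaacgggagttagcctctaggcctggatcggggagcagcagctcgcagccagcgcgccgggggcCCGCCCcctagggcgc
Cd9, chr6:125494792-125495010, minus strand: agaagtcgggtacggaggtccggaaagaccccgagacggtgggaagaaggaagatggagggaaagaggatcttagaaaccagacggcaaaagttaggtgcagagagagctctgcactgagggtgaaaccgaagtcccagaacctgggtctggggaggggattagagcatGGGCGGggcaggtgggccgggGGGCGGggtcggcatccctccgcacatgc
Epcam, chr17:87635729-87635978, plus strand: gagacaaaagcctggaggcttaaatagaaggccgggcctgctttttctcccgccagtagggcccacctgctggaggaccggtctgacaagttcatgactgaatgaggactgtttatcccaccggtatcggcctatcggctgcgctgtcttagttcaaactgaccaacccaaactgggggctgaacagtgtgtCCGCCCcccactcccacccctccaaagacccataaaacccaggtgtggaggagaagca
Itgb1, chr8:128685404-128685653, plus strand: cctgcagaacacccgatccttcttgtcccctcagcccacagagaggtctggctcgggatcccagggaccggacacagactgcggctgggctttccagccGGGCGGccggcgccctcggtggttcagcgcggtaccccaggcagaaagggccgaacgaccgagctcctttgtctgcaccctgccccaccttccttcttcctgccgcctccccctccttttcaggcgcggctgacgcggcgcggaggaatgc
In the bases shown, Mcam, Epcam and Itgb1 each held 1 GC box and Cd9 held 2. In full windows of 250 bases, Mcam held 5 and the others as many as shown, and Adgra3, at a lower level, held 1. Over all 32851 RefSeq windows of 250 bases, 32.7% held a GC box on either strand. TATAAA, found in 12.4% of all windows on either strand, and CCAAT, found in 33.8%, were in none of the 5 full windows. The 250-base windows of the 5 genes were 56.4% to 73.6% G or C, against a median of 52.4% over all windows. These matches describe letters only, and were found in the high genes and in Adgra3 alike.

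The laminin receptor chains did not follow each other across the libraries. Itga6 (ENSMUSG00000027111.16, chr2:71786940-71856771, plus strand, mm10) held 18.0 and 25.05 FPKM in WT1 and WT2, and 37.0 and 26.1 FPKM in Tex11PM/Y libraries A and B. Of stretches of 50 bases in its GENCODE transcripts, 5.31% also occur in other genes, most often Gm29397, which had 0 to 3 counts. Itga6 was lowest in WT1 and highest in library A, with WT2 and library B close together between them. Itgb1 (ENSMUSG00000025809.15, chr8:128685654-128733200, plus strand) held 139.6 and 76.6 FPKM in WT and 59.8 and 68.5 FPKM in libraries A and B. It was highest in WT1 and lowest in library A, the reverse of Itga6, and its genotypes did not overlap. The ratio of Itgb1 to Itga6 in FPKM was 7.75 and 3.06 in WT1 and WT2, and 1.61 and 2.63 in libraries A and B.

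Between genotypes, Itga6 averaged 119 ± 19.9 CPM for WT against 162 ± 43.1 CPM for Tex11PM/Y (SD, n = 2 each), a log2 fold change of 0.45 with a 95% interval from -0.30 to 1.21 (edgeR adjusted p = 0.884). Itgb1 had 529 ± 248 and 289 ± 23.1 CPM, a log2 fold change of -0.87 with an interval from -1.78 to 0.04 (edgeR adjusted p = 0.884). Neither passed the test. The Itgb1 value rested largely on WT1: it was -0.31 without that library and -1.31 without WT2. In WT1 the genes of chromosome 8 had a median 0.40 log2 above the other 3 libraries (921 genes), and Itgb1, on that chromosome, stood 1.19 above them. The summed fibroblast markers were highest in the same library. The part of either in the Itgb1 value was not tested.

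Within the integrin family, both chains led their list. Itga6 was the highest of 18 alpha chains in 3 libraries and the second in WT1, behind Itga5, the fibronectin receptor chain (26.2 FPKM). It made up 21.3% and 42.4% of the summed alpha chain FPKM in WT1 and WT2, and 73.2% and 40.8% in libraries A and B. The share was thus lowest where Itga6 itself was lowest, and highest in library A, where Itga5 held 1.11 FPKM. Itga3, another laminin receptor chain, and Itgav, a chain of vitronectin receptors, held 3.99 to 7.36 and 2.02 to 6.79 FPKM. Itgb1 was the highest of 8 beta chains in every library, with 62.8% to 71.4% of their summed FPKM, ahead of Itgb5 (19.3 to 54.4 FPKM).

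The laminins that this receptor binds were also read in the libraries, led by the beta and gamma chains. Lamb1 held 57.1, 63.2, 26.3 and 39.9 FPKM in WT1, WT2, A and B, and Lamc1 held 51.5, 21.6, 12.1 and 24.8 FPKM. Lamb1 values of Tex11PM/Y lay below both WT values (log2 fold change -0.98, standard error 0.32), without passing the test (edgeR adjusted p = 0.884). Of 9 laminin chains tested, 0 passed in either direction and 7 were fitted lower, beside 49% of all genes. Their median log2 fold change was -0.98. Of 17 integrin alpha chains, 7 beta chains and 17 adaptors tested, 0 passed in either direction, with medians of -0.46, -0.35 and -0.48. Among the adaptors, Zyx, a protein of focal adhesions, held 63.9, 43.0, 16.2 and 37.7 FPKM, while the kinase gene Ptk2 held 24.9, 38.0, 33.1 and 39.3 FPKM.

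Thy1 varied most of the 9 genes, and did so between the 2 libraries of each genotype. Thy1 (ENSMUSG00000032011.5, chr9:44043384-44048579, plus strand) held 69.4 and 27.4 FPKM in WT1 and WT2, and 2.41 and 28.5 FPKM in libraries A and B, from 2853, 1113, 93 and 1155 counts. WT2 and library B were alike, WT1 was above and library A far below them, and the genotypes overlapped. The highest CPM was 34.2 times the lowest, and the log2 range of 5.07 was wider than that of 99.0% of the genes tested. The 93 counts of library A have an exact 95% Poisson interval from 75.1 to 114, which covers counting error only, so the low value did not rest on sampling of reads.

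The same order of libraries was seen in the summed fibroblast markers. Per 100 FPKM of the 15 markers summed, Thy1 held 2.68 and 3.54 FPKM in WT1 and WT2, and 2.73 and 2.70 FPKM in libraries A and B. This ratio spanned 1.32 times, whereas Thy1 alone spanned 28.8 times in FPKM. The ratio depends on the make-up of the sum, which was 88.4 FPKM in library A. Fbln1 alone held 61.8 and 51.0 FPKM in WT1 and WT2, and 38.0 and 59.7 FPKM in libraries A and B. Each of the 15 markers was lowest in library A, but Dcn and Lum were highest in library B and the others in WT1. Per 100 FPKM of the 12 germ cell markers, Thy1 spanned 44.4 times, and per 100 FPKM of the 13 macrophage markers 5.25 times. These ratios describe 4 libraries, and the part of fibroblast RNA in the Thy1 level was not tested. Pooled by genotype, Thy1 averaged 108 ± 73.5 CPM for WT against 31.1 ± 37.4 CPM for Tex11PM/Y (SD, n = 2 each). Its log2 fold change was -1.80 with a 95% interval from -4.93 to 1.33 (edgeR adjusted p = 0.884). Without library B, which left library A as the lone Tex11PM/Y library and assumes that it varies like the WT libraries, the value was -4.58. Without library A it was -0.91, and without WT1 it was -0.86.

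**Figure D2:**
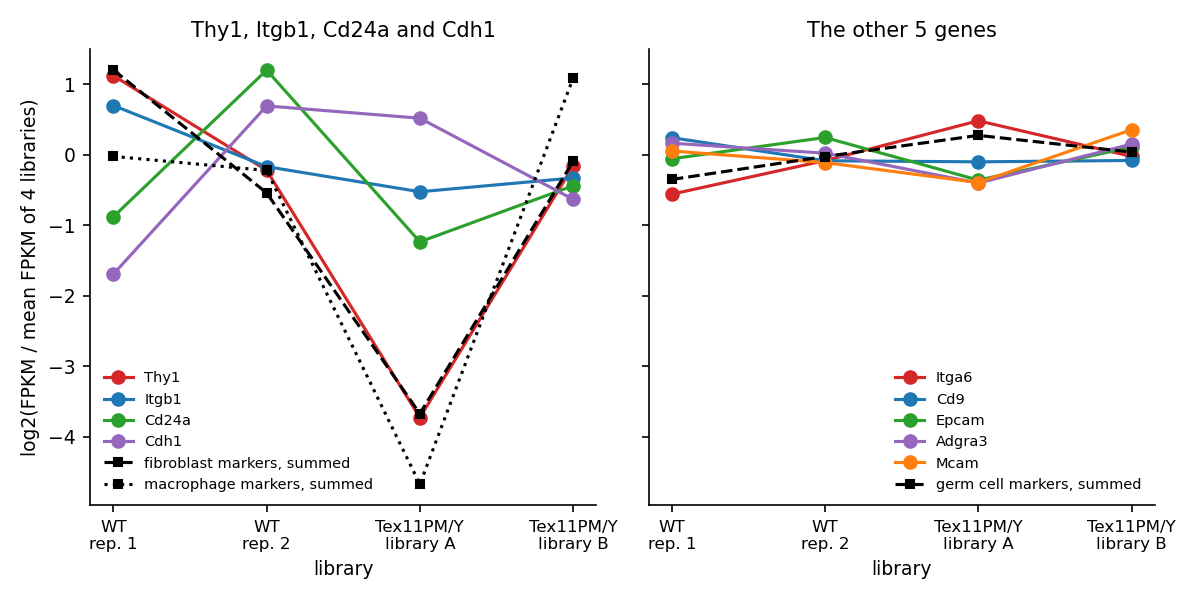
Log2 of FPKM over its mean in 4 libraries, for each of the 9 genes (coloured, in 2 panels) and for the summed FPKM of marker lists (black). Lines only join the values of a gene, as libraries have no order. Thy1 and the fibroblast markers lie almost on each other, with library A lowest, while Cd24a is highest in WT2 and Cdh1 is lowest in WT1.

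Cd24a, the other GPI-anchored protein, was high in 1 library only. Cd24a (ENSMUSG00000047139.9, chr10:43579169-43584265, plus strand) held 4.64 and 19.6 FPKM in WT1 and WT2, and 3.63 and 6.29 FPKM in libraries A and B. WT2 stood above the other 3 libraries, which ran from 3.63 to 6.29 FPKM, and the genotypes overlapped. The mean was 27.3 ± 22.5 CPM for WT against 10.7 ± 3.39 CPM for Tex11PM/Y (SD, n = 2 each), a log2 fold change of -1.35 with a 95% interval from -2.91 to 0.21 (edgeR adjusted p = 0.884). The value was -0.11 without WT2 and -2.03 without WT1. Cd24a did not share the pattern of Thy1: in FPKM, Epcam exceeded Cd24a 19.2 times in WT1 and 19.9 times in library A, the libraries in which Thy1 was highest and lowest. Of stretches of 50 bases in its GENCODE transcripts, 2.75% also occur in Gm6212, an annotated gene on chromosome 14 that had 0 counts in all 4 libraries.

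In the list of 17 GPI-anchored proteins, Thy1 was the third highest in 3 libraries and the tenth in library A. Tex101, a germ cell protein, led the list at 122 to 176 FPKM, and the prion protein gene Prnp held 59.1, 34.2, 11.1 and 37.5 FPKM in WT1, WT2, A and B. Gfra1, the GPI-anchored receptor for GDNF, the growth factor on which SSCs depend, held 22.2 to 41.3 FPKM. Of 15 list members tested, Thy1 and Cd24a among them, 0 passed in either direction. All 15 were fitted lower, beside 49% of all genes, with a median log2 fold change of -1.07. The list summed to 552, 288, 201 and 301 FPKM in WT1, WT2, A and B, so WT2 and library B were alike.

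Cd9 varied least of the 9 genes by the ratio of highest to lowest, its highest FPKM being 1.27 times its lowest. By the SD of CPM as a percent of the mean, Epcam (17.0%) was slightly below Cd9 (18.0%). Cd9 (ENSMUSG00000030342.8, chr6:125460266-125494791, minus strand) held 124 and 99.1 FPKM in WT1 and WT2, and 98.0 and 99.4 FPKM in libraries A and B. WT1 was slightly above the other 3, which lay close together. The mean was 148 ± 33.9 CPM for WT against 123 ± 2.72 CPM for Tex11PM/Y (SD, n = 2 each), a log2 fold change of -0.27 with a 95% interval from -0.97 to 0.44 (edgeR adjusted p = 0.894). Among the 9 genes, Cd9 shared the largest part of its GENCODE transcripts with other genes. Of their stretches of 50 bases, 14.4% also occur in transcripts of other genes, most often Gm26728. The effect of this on the Cd9 counts was not tested. An exon of Gm26728 on the opposite strand shares 30 bases with Cd9 in the deposited annotation, and without strand, reads there cannot be told apart. Gm26728 had 1 to 15 counts beside 2408 to 3064 for Cd9.

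Other tetraspanins moved more than Cd9 did from library to library. Cd63, a tetraspanin of lysosomes and exosomes, led the 31 genes by mean with 216, 122, 79.5 and 137 FPKM in WT1, WT2, A and B. Cd81, a close relative and partner of CD9, held 144, 48.2, 17.5 and 48.6 FPKM, highest in WT1 and lowest in library A as the summed fibroblast markers were. Tspan3 held 58.8 to 84.3 FPKM. Cd9 was the highest tetraspanin in library A and ranked 2 or 3 elsewhere. Of 27 tetraspanins tested 0 passed in either direction and 23 were fitted lower, beside 49% of all genes. Their median log2 fold change was -0.62. Of 6 CD9 partners 0 passed, with a median of -0.49; Cd151, Igsf8 and Ptgfrn held 26.6 to 51.6, 11.6 to 32.4 and 18.8 to 22.9 FPKM.

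Epcam was high in all libraries and Cdh1 low in all, and their patterns differed. Epcam (ENSMUSG00000045394.9, chr17:87635979-87651129, plus strand) held 89.1 and 109.8 FPKM in WT1 and WT2, and 72.2 and 99.9 FPKM in libraries A and B. In CPM, which is the scale of the test, WT held 239 and 258 and Tex11PM/Y 169.7 and 231, so that the genotypes did not overlap by a small margin. The log2 fold change was -0.31 with a 95% interval from -1.01 to 0.39 (edgeR adjusted p = 0.884). Cdh1 (ENSMUSG00000000303.12, chr8:106603351-106670246, plus strand) held 1.52 and 7.94 FPKM in WT and 7.04 and 3.17 FPKM in libraries A and B, from 160, 843, 727 and 331 counts. Each genotype thus had a high and a low library. The log2 fold change was 0.04 with a wide interval, from -1.74 to 1.82 (edgeR adjusted p = 0.994), and turned to -0.71 without WT1, to -0.64 without library A and to 1.53 without WT2.

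Cdh1 lies on chromosome 8, as Itgb1 does, but stood 1.70 log2 below the other 3 libraries in WT1, where the genes of that chromosome had a median 0.40 above them. Epcam exceeded Cdh1 58.5 and 13.8 times in FPKM in WT1 and WT2, and 10.3 and 31.5 times in libraries A and B. Among 22 cadherins, Cdh1 was the highest in WT2 and library A, the fourth in library B and the seventh in WT1. Cdh3, P-cadherin, had a higher mean, with 14.2 FPKM in WT1 and 6.93 to 7.89 FPKM in the others. Cdh4, R-cadherin, held 1.85 to 6.82 FPKM, and Cdh11, a cadherin of mesenchymal cells, 5.46, 4.72, 0.24 and 3.89 FPKM in WT1, WT2, A and B. Of 14 cadherins tested 0 passed, with 7 fitted higher and 7 lower and a median log2 fold change of -0.10.

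Of 7 catenins, which tie cadherins to actin, 4 had a higher mean FPKM than Cdh1 and 3 a lower mean. Among the 4, Ctnnd1 had 272 to 481 counts beside 19.4 to 31.9 FPKM, so its place rests on its FPKM. Jup had 1567 to 2215 counts beside 21.1 to 29.3 FPKM. Ctnnb1, beta-catenin, held 111, 168, 171 and 182 FPKM in WT1, WT2, A and B, and Ctnna1 held 34.5 to 52.1 FPKM. Of 6 catenins tested 0 passed, with a median of -0.30. Of 10 EpCAM partners and proteases tested 0 passed, with a median of -0.30. Spint2, a protease inhibitor, led that list at 112 to 149 FPKM, and Adam17, a sheddase, held 20.5 to 31.1 FPKM. The claudin gene Cldn7, whose product binds EpCAM in epithelia, had at most 0.40 FPKM and was chosen after its values were seen.

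Adgra3 and Mcam, the receptor and the immunoglobulin-type protein, showed no separation of the genotypes. Adgra3 (ENSMUSG00000029090.12, chr5:49959956-50059006, minus strand) held 18.6 and 16.8 FPKM in WT1 and WT2, and 12.5 and 18.4 FPKM in libraries A and B. Library A was lowest and the other 3 lay close together. The log2 fold change was -0.30 with a 95% interval from -1.07 to 0.46 (edgeR adjusted p = 0.894). Mcam (ENSMUSG00000032135.15, chr9:44134562-44142727, plus strand) held 126 and 112 FPKM in WT and 92.1 and 155 FPKM in libraries A and B, so that the Tex11PM/Y libraries lay on either side of both WT libraries. The log2 fold change was -0.06 with an interval from -0.88 to 0.76 (edgeR adjusted p = 0.981). Its sign turned under several alternatives, with values from -0.51 to 0.25.

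Mcam and Thy1 are near neighbours, 86.0 kb apart on the same strand of chromosome 9 with 10 genes of the count table between them, but had unlike patterns. Mcam exceeded Thy1 in FPKM 1.81 and 4.09 times in WT1 and WT2, and 38.2 and 5.43 times in libraries A and B. Among 24 immunoglobulin-type adhesion proteins Mcam was second to Bsg (basigin; 145 to 545 FPKM) in every library, ahead of F11r (47.7 to 66.6 FPKM) and Cadm1 (27.4 to 49.0 FPKM), a protein by which spermatogenic cells adhere to Sertoli cells. Of the 9 endothelial markers, measured beside Mcam since it is also an endothelial protein, Egfl7 held 23.0, 10.4, 4.31 and 12.96 FPKM in WT1, WT2, A and B, and Pecam1, the next by mean, at most 2.53 FPKM. Both were picked with their values in view. The 6 myoid markers summed to 116, 25.002, 3.33 and 23.5 FPKM in the same order. Tagln gave 46.0, 12.8, 1.39 and 12.3 FPKM of these sums but had only 26, 14, 12 and 9 counts, so the tables disagreed on it. Mcam was lowest in library A, as both sums were, but highest in library B, where neither sum was. Egfl7 held most of the endothelial sum, and the other endothelial markers were mixed. Pecam1, Esam and Tie1 were also lowest in library A, but Tek and Cdh5 were lowest in WT1 and Kdr and Cldn5 in library B. Emcn was at 0 in WT2 and library A. Of the myoid markers, Myh11 was highest in library B, as Mcam was, and lowest in WT1. It held 0.30 and 0.68 FPKM in WT1 and WT2, and 0.38 and 0.73 FPKM in libraries A and B. The other myoid markers were highest in WT1 and lowest in library A by FPKM. The part of such cells in the Mcam level was not tested. Adgra3 ranked 2 or 3 of 30 adhesion G protein-coupled receptors, behind Adgrl1, a latrophilin (32.7 to 51.0 FPKM), and beside Adgrl2 (13.9 to 20.1 FPKM). Its relatives Adgra2 and Adgra1, named after their values were seen, held 0.58 to 5.88 and at most 0.04 FPKM. Of 20 immunoglobulin-type proteins and 21 adhesion receptors tested 0 passed in either direction, with medians of -0.82 and -0.37.

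**Figure D3:**
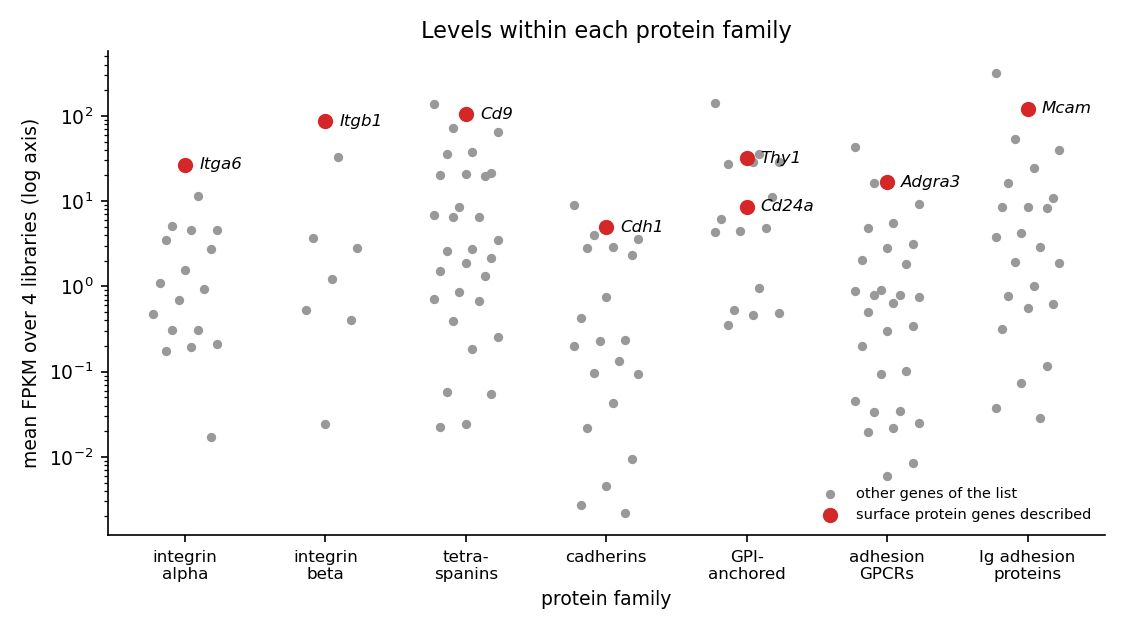
Mean FPKM over 4 libraries (log axis) of each gene in 7 protein families, with the surface protein genes described in red and other genes of the family in grey; genes listed at 0 in all libraries are not drawn. Itga6 and Itgb1 lead their families, and Cd9, Cdh1, Adgra3 and Mcam are second in theirs.

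Taking the 9 genes as a whole, 0 passed the test in either direction and 0 had an unadjusted p under 0.05, with edgeR, and DESeq2 and limma called 0 as well. Over all 17262 genes tested edgeR called 0%, and 2.7% had an unadjusted p under 0.05 (0.991% higher and 1.71% lower). The groups did not overlap for 2 of the 9, Itgb1 and Epcam, both lower in Tex11PM/Y, against 16.3% of all genes in that direction and 32.4% in either. Fitted values were below 0 for 7 of the 9 genes and for 49% of all genes. The 172 tested genes of the family lists, the 9 left out, had a median log2 fold change of -0.52 beside 0.01 for all genes; it was -1.04 without library B, -0.29 without library A and -0.26 without WT1, and -0.17 with limma on log2(FPKM + 1). Fibroblasts make many of these genes, and the fibroblast markers had their lowest sum in library A. The part of those cells in this median was not tested, and the lists were chosen with earlier results of these data known.

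**Figure D4:**
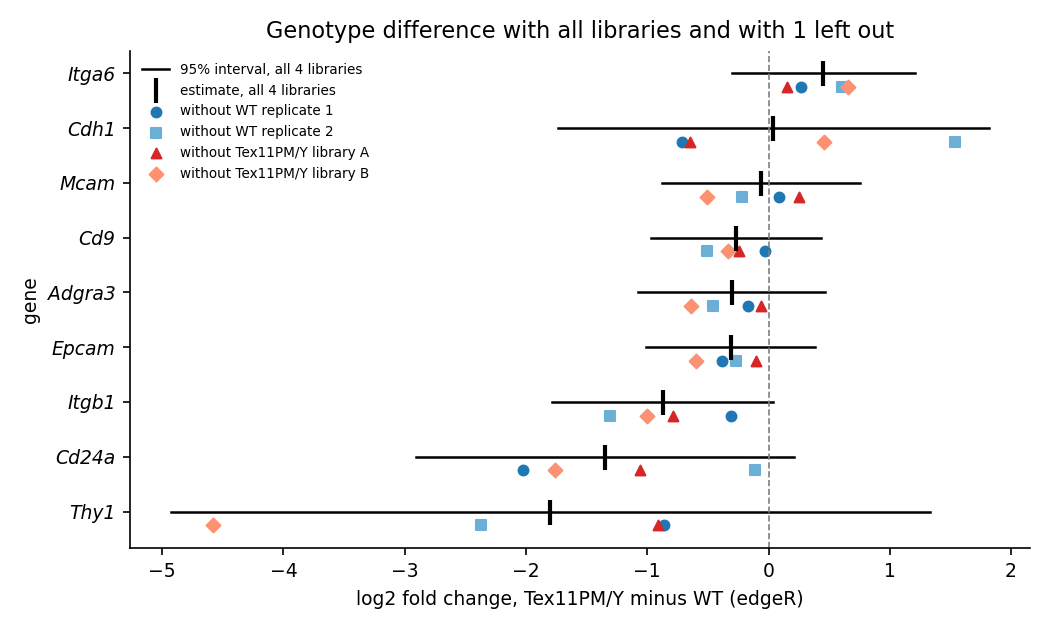
Log2 fold change of Tex11PM/Y over WT from edgeR for each of the 9 genes, with its 95% interval from all 4 libraries (black) and the estimate with each library left out (coloured points below each line). All 9 intervals include 0, and for Thy1 the estimate runs from -4.58 to -0.86 depending on the library left out.

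Surface genes whose products are used to keep cells out of an SSC sort were read as well. H2-D1, a class I histocompatibility gene, held 179, 125, 45.3 and 136 FPKM in WT1, WT2, A and B, and B2m, its light chain, held 107, 51.4, 28.2 and 58.0 FPKM. H2-K1 held 25.1 to 79.4 FPKM and Ly6a, which encodes the Sca-1 protein, 70.4, 20.3, 1.32 and 22.4 FPKM. These levels were lowest in library A, where the sums of the fibroblast and macrophage markers were also lowest, and the part of those cells was not tested. Of the 8 genes in this list 0 passed and all 8 were fitted lower, beside 49% of all genes. Their median log2 fold change was -0.94. Among other surface genes of undifferentiated spermatogonia, Ret, the signalling partner of Gfra1, held 76.6 to 107 FPKM, Fgfr1 34.6 to 75.1 FPKM and Igf1r 21.7 to 38.8 FPKM. Of 12 tested 0 passed, with a median of -0.29.

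The closest patterns over the 4 libraries were found by distance, with no account of function. Thy1 had 49 genes of 10863 within a distance of 0.5, led by Kif1a (distance 0.09) and Cyp26b1 (0.12). Cd24a had 0, its nearest being Elmsan1 (0.51) and Gldc (0.55). Cdh1 had 3, led by G2e3 (0.31) and Smc6 (0.41), and both of these and Elmsan1 lie on chromosome 12, whose genes had a median 0.57 log2 above the other libraries in WT2 (632 genes). Itgb1 had 685, led by Gorasp2 and Lat. The other 5 genes had between 2054 and 2901 genes within that distance, so that their nearest genes (Trdmt1 for Itga6, Gmpr2 for Cd9, Dpf1 for Epcam, Ndufa10 for Adgra3 and Tmem101 for Mcam) are a few of many alike.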

How the data were processed

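Poly(A) RNA of sorted mouse spermatogonial stem cells was sequenced in 4 libraries, and 3 gene tables were deposited. The count table holds read counts per gene, not normalized, deposited by the authors as featureCounts output, per the file headers. The FPKM table and the TPM table were deposited by the authors with gene symbols per the file headers. Per the submitters' processing notes, the build was mm10 and the tools were STAR, StringTie, featureCounts, fastp and DESeq2, without roles or versions. Which annotation release was used is not stated. The library kit is not stated to keep strand.

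The 9 genes were taken by symbol from the FPKM table and joined to the counts by gene identifier. The 2 Tex11PM/Y columns share a name and a replicate number, so they are called library A and library B in column order. Counts were fitted with edgeR 4.0.16 under R 4.3.3 (TMM scaling after filterByExpr, robust quasi-likelihood tests on genotype alone, Benjamini-Hochberg adjustment over 17262 genes, threshold 0.05). Intervals of 95% came from that fit, and the fit was tested on simulated data. CPM are counts scaled to the TMM-adjusted library size, and their log2 used a prior count of 2. Alternatives were DESeq2 1.42.0, other scalings and count filters, limma 3.58.1 on log2 FPKM or TPM, and each library left out.

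The genes and the family lists were chosen with earlier results of these data known. The text names the 9 genes, the 4 genes of highest mean FPKM in a family list, and for each of the 9 the closest genes by Euclidean distance of centred log2 CPM over 4 libraries, among genes of at least 5 CPM that are no predicted gene or pseudogene. Other genes, among them single markers of other cell types, were chosen after their values were seen. No table of protein sequences was used here.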

Additional observations from a re-analysis of the deposited data

How the results depend on the processing

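Of 117 recomputed values of the 9 genes, 106 kept their direction and their side of the threshold, 10 turned sign and 1 newly passed. Cdh1 turned to -0.0021 with no count filter. Mcam turned to 0.0063 with library size alone, to 0.0093 with limma on log2(FPKM + 1), also at a mean FPKM of at least 1, to 0.009 with log2(FPKM + 0.1), and to 0.13 with limma on log2(TPM + 1). With a library left out Cdh1 ran from -0.71 to 1.53, Mcam from -0.51 to 0.25 and Thy1 from -4.58 to -0.86. Genes called higher and lower over all genes were 1 and 0 with DESeq2, 16 and 34 with no count filter, and 0 to 74 and 0 to 444 with a library left out. The value that newly passed was Thy1 without library B. That fit left a lone Tex11PM/Y library and also called the most genes over all genes, so the pass was not particular to Thy1. For the family lists, added after the data were seen, 5 genes were called with no count filter and 0 to 17 with a library left out, and their median, -0.52 as reported, ran from -1.04 to -0.26; it was -0.17 with limma on log2(FPKM + 1), -0.18 on log2(TPM + 1) and -0.35 on log2(FPKM + 0.1), scales that shrink low genes. The fewest counts behind a value of the 9 genes were 93. The smallest two-sided p that permuting 2 against 2 libraries allows is 0.333. No paired analysis was possible because both Tex11PM/Y columns carry the same replicate number, so the labels do not say which library would pair with which.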

Other observations

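Itga6 lay close to the sum of the germ cell markers over the 4 libraries, a comparison chosen after the values were seen. The single markers were mixed. Dazl, the largest part of the sum, Ddx4, Zbtb16, Lin28a, Tdrd5 and Sall4 were lowest in WT1 and highest in library A, as Itga6 was. Ret, Gfra1 and Etv5 were highest in WT1, and Dnd1, Id4 and Nanos2 in library B. Such closeness is common, as 2310 of 10863 genes lay within a distance of 0.5 of Itga6. Per 100 FPKM of the 12 markers summed, Itga6 held 2.86 and 3.17 FPKM in WT replicates 1 and 2 and 3.81 and 3.16 FPKM in libraries A and B, a span of 1.33 times, beside 2.06 times for Itga6 alone. On the same scale Epcam spanned 1.90 times, Cd9 1.95 times, Mcam 2.10 times and Adgra3 2.28 times, each more than its FPKM alone, while Cdh1 spanned 4.17 times, less than its 5.22 times alone.

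Tspan8, a tetraspanin used to divide spermatogonia into fractions, held 1.501 and 2.64 FPKM in WT replicates 1 and 2 and 7.12 and 2.87 FPKM in libraries A and B, and was chosen after its values were seen. Epha2, a receptor kinase gene of undifferentiated spermatogonia, held 39.1, 23.8, 8.44 and 15.6 FPKM in the same order (log2 fold change -1.51 ± 0.43 SE, adjusted p = 0.884 by edgeR). St14, which encodes a protease that cleaves EpCAM, had a log2 fold change of -1.48 ± 0.43 (SE, adjusted p = 0.884 by edgeR). These 2 were chosen after their values were seen, for the smallest unadjusted p among the family list genes. The count and FPKM tables disagreed on Ilk, an integrin adaptor, with 3 to 26 counts beside 17.8 to 40.3 FPKM, so it was not tested.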
